A study of Mus musculus with 12 samples.

Results

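The effect of Gpr31b loss on the response of macrophages to stimulation was measured as the genotype by stimulation interaction. This is the difference between 2 responses on the log2 scale, the knockout (KO) response, M1 over M0, minus the wild-type (WT) response, M1 over M0. All 12 libraries of the series entered it, and 2333 of the 24552 rows of the count table had enough counts to be tested. The cells were macrophages grown in culture from the bone marrow of Gpr31b KO or WT mice. Each genotype was measured as M1 cells, which had received LPS and IFN-γ, and as unstimulated M0 cells. The 4 groups, KO M1, KO M0, WT M1 and WT M0, held 3 libraries each. Every library carried a line label, KO1 to KO3 or WT1 to WT3, and each line gave 1 M1 and 1 M0 library. The labels do not say whether a line is an animal, a pool of animals or a culture. They also give no strain, age or sex of the mice, no way in which Gpr31b was deleted, and no dose or duration of the stimulus. The p-values therefore measure the spread between these libraries, which may be technical.

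GPR31 is a G protein-coupled receptor for 12-HETE, a lipid made from arachidonic acid by 12-lipoxygenase. LPS is sensed by Toll-like receptor 4, which signals through NF-κB and also leads to the release of interferon-β. IFN-γ acts through its own receptor and induces transcription factors such as IRF1, and both signals together move macrophages to the classically activated state, with nitric oxide, proinflammatory cytokines, antigen presentation and antiviral genes. An interaction asks whether that programme was larger, smaller or of another direction in the absence of the receptor, which neither response shows by itself.

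The library totals of 372878 to 585465 counts set how finely this could be measured. Values are given by row, since most counts lay in rows whose exons face a gene on the other strand: matched rows with an exon of an opposite-strand gene held 91.2% of the counts of matched rows. The strand that was counted is not given in the sources used here, so reads of a row and of its opposite-strand partner cannot be told apart. A row's level therefore need not be that of the gene whose symbol it carries. The partner is named with many rows below, but not with all. The others include Ctsa for Pltp, Dtx3l for Parp9, Thra for Nr1d1, Haghl for Narfl, Yipf2 for Timm29 and Tmed1 for Dnm2. A930015D03Rik faces H2-T22, Phrf1 faces Irf7, Gm17334 faces Irf1, Gm45606 faces Slc43a2 and AC119228.1 faces Cd274. Levels are in CPM, a row's count divided by the TMM-scaled library total, where TMM sets the scale from the bulk of the rows. The Gpr31b row had 0 counts in every KO M1 and KO M0 library, 2 counts in each WT M1 library and 0 in every WT M0 library, so it checks the labels only weakly. In the same cells the row of Alox15, a lipoxygenase gene, was at 0 in all 12 libraries. Of 13 macrophage markers, 11 were tested, and their summed level was 389 to 621 CPM in KO M1, 354 to 714 CPM in KO M0, 465 to 611 CPM in WT M1 and 515 to 546 CPM in WT M0. Markers of neutrophils, T and NK cells, B cells, stromal cells and erythroid or mast cells had 0 tested members and summed to at most 34.1 CPM in any library. Since a row's level need not be that of its gene, these low sums cannot show that such cells were absent. Of 10 dendritic cell markers 2 were tested, and their sum was 535 to 746 CPM in KO M1 and 45.1 to 61.5 CPM in KO M0, against 581 to 686 CPM in WT M1 and 43.1 to 63.9 CPM in WT M0. The 2 went opposite ways. The Xcr1 row had responses of 4.74 in KO and 4.45 in WT, and the Clec9a row -6.12 in KO and -3.22 in WT. The rows of Flt3, Zbtb46, Cd209a and Dpp4 were at 0, so the rise of the sum does not describe these markers as a set. In such bulk samples, fewer cells of a type and less RNA per cell cannot be told apart.

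Over the responding rows as a whole, stimulation moved rows by nearly the same amount in both genotypes. Averaged over the genotypes, 1428 rows (61.2%) were called at an adjusted p under 0.05 in edgeR's quasi-likelihood test, 729 of them higher in M1 (31.2%) and 699 lower (30%). The KO response alone called 1110 rows (47.6%) and the WT response alone 1138 rows (48.8%). Over the 1428 responding rows the line through the KO and WT responses had an orthogonal slope of 0.977, where 1 means equal size, and the responses correlated at r = 0.936 across rows. This r describes rows of the same 12 libraries, which are not independent replicates. The slope was 0.985 over the 729 risers and 0.962 over the 699 fallers. Over the 654 responding rows at 100 CPM or more it was 0.984, with r = 0.979. Taken line by line against the mean of all 6 lines, the slopes were 0.987, 0.985 and 1 in the KO lines and 1.02, 1 and 1 in the WT lines. WT1 lay apart at the upper end, and KO3 lay level with the other WT lines. The KO response was the larger in 654 of the 1428 rows, and the median difference in size, KO minus WT, was -0.05 on the log2 scale. Which rows enter matters to the last few percent: rows called in the WT response gave a slope of 0.95 and rows called in the KO response 1.01.

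**Figure D1:**
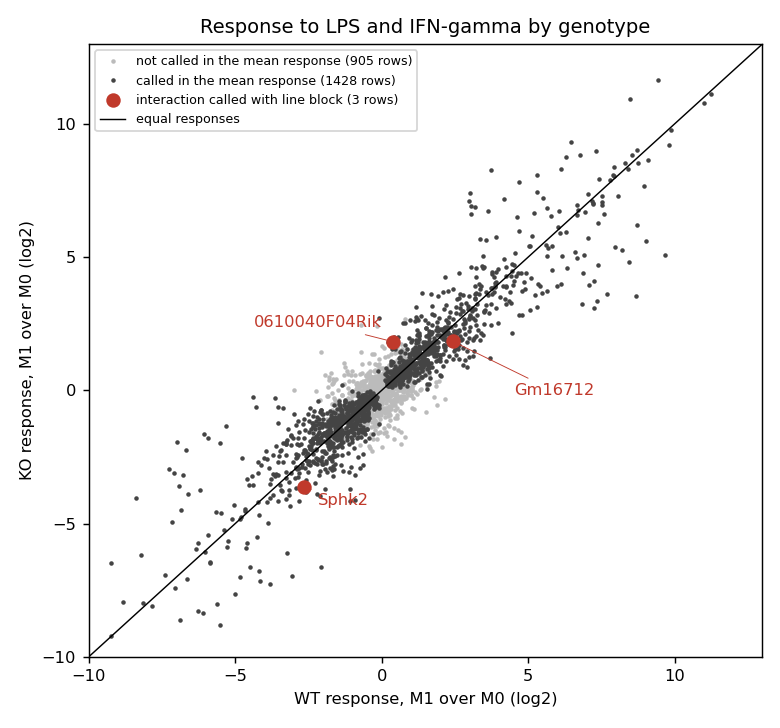
Fitted KO response (vertical axis, log2 of M1 over M0) against fitted WT response (horizontal axis, same unit) for the 2333 tested rows, with a line at equal responses. The 1428 responding rows follow the line, and the 3 rows called for the interaction with lines as a block are marked.

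The interaction itself called 0 of 2333 rows (0%) without a block for the line, at an adjusted p under 0.05 in edgeR's quasi-likelihood test. DESeq2 and limma-voom also called 0. At an unadjusted p under 0.05 edgeR had 144 rows (6.17%), DESeq2 138 and limma-voom 123. Of those 144 rows, 82 (3.51%) had the KO response above the WT response and 62 (2.66%) below it. Among the 144, 115 were responding rows, and the KO response was the larger in 40 of these and the smaller in 75. The fitted responses had opposite signs in 32. The genotypes differed at an unadjusted p under 0.05 in M1 alone in 62 rows, in M0 alone in 47, in both states in 6 and in neither in 29. With the line as a block, so that each M1 library is set against the M0 library of its own line, 3 rows (0.129%) were called and 150 (6.43%) had an unadjusted p under 0.05. The 3 were 0610040F04Rik, Sphk2 and Gm16712. All 3 lost the call when line KO2 was left out and kept it when any of the other 5 lines was left out. The line responses of KO and WT did not overlap in 296 rows (12.7%), in 157 of them with KO above WT (6.73%) and in 139 with KO below WT (5.96%). Set against each other within M1, KO and WT differed in 0 rows (0%) in edgeR, with 164 rows at an unadjusted p under 0.05, and in 0 rows in DESeq2 and limma-voom, each with 152 such rows. Within M0 they differed in 1 row (0.0429%) in edgeR, Perm1, and in 0 in DESeq2 and limma-voom, with 142 and 178 rows at an unadjusted p under 0.05 in that order. The Perm1 row, named after its values were seen, lies 149 bases from the 3′ end of Plekhn1 on the opposite strand. It had 1795, 2169 and 1882 CPM in KO M1 and 239, 185 and 201 CPM in KO M0, against 1947, 1389 and 1487 CPM in WT M1 and 122, 109 and 129 CPM in WT M0. The M0 levels did not overlap and the M1 levels did, and its interaction was -0.52 (SE 0.20, edgeR adjusted p = 0.627) with overlapping lines.

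The 0610040F04Rik row rose on stimulation in the KO cells, and its WT response did not pass the test. This antisense RNA lies on chromosome 6 at chr6:108577039-108660934 (GRCm38, minus strand), and its exons share 118 bases with Bhlhe40 on the plus strand. Bhlhe40 encodes a basic helix-loop-helix repressor of the circadian clock that also tunes cytokine production in myeloid and T cells. The row had 416, 685 and 590 CPM in lines KO1 to KO3 in M1 and 192, 99.2 and 185 CPM in M0, against 376, 341 and 333 CPM in lines WT1 to WT3 in M1 and 259, 202 and 347 CPM in M0. Every KO M1 library lay above every WT M1 library, and every KO M0 library lay below every WT M0 library. The line responses were 1.10, 2.73 and 1.65 in KO and 0.53, 0.74 and -0.06 in WT on the log2 scale, with no overlap. The KO response was 1.83 (SE 0.22, edgeR adjusted p = 3.12e-08) and the WT response 0.38 (SE 0.22, edgeR adjusted p = 0.152). The interaction was 1.45 on the log2 scale (SE 0.31, 95% interval 0.82 to 2.08), with an edgeR adjusted p of 0.122 without the block. With the line block it was 1.42 (SE 0.29, edgeR adjusted p = 0.0248), and it was called in 13 of 30 alternatives. With the replicate number as the block the edgeR adjusted p was 0.0518. Without line KO2, the line with the largest response, the value was 0.99 and the edgeR adjusted p 0.36.

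Sphk2 encodes sphingosine kinase 2, which makes the signalling lipid sphingosine-1-phosphate, and its row fell further in KO than in WT cells. The row lies at chr7:45709467-45718002 (GRCm38, minus strand) and faces Dbp over 539 bases and Rpl18 over 373 bases. Dbp is a circadian output transcription factor and Rpl18 a ribosomal protein. Sphk2 had 157, 89.5 and 169 CPM in KO M1 and 1541, 1885 and 1740 CPM in KO M0, against 211, 190.3 and 263 CPM in WT M1 and 1413, 1309 and 1465 CPM in WT M0. All 3 KO M1 libraries were below all 3 WT M1 libraries, and all 3 KO M0 libraries were above all 3 WT M0 libraries. The line responses were -3.25, -4.33 and -3.33 in KO and -2.72, -2.75 and -2.46 in WT. The interaction was -0.97 on the log2 scale (SE 0.23, 95% interval -1.44 to -0.50), with an edgeR adjusted p of 0.177 without the block and 0.0248 with it. It was called in 9 of 30 alternatives, and without line KO2 it was -0.67 with an edgeR adjusted p of 0.5. The Dbp row itself, on the plus strand, had an interaction of -0.30 (SE 0.41, edgeR unadjusted p = 0.473, 95% interval -1.12 to 0.53), an interval that contains the value of Sphk2, and its sign changed in some alternatives.

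The Gm16712 row rose less in KO than in WT cells. It is an antisense RNA at chr17:55954771-55959381 (GRCm38, minus strand) and faces Ebi3 over 270 bases and Yju2 over 248 bases. Ebi3 encodes a subunit shared by the cytokines interleukin-27 and interleukin-35, and Yju2 a splicing factor. Gm16712 had 5788, 5084 and 7014 CPM in KO M1 and 1345, 1758 and 1884 CPM in KO M0, against 6961, 5947 and 7894 CPM in WT M1 and 1359, 1140 and 1385 CPM in WT M0. Levels overlapped between the genotypes in both states, whereas the line responses, 2.10, 1.53 and 1.89 in KO and 2.35, 2.38 and 2.51 in WT, did not. The interaction was -0.58 on the log2 scale (SE 0.18, 95% interval -0.96 to -0.20). Its edgeR adjusted p was 0.605 without the block and 0.0248 with it, and it was called in 8 of 30 alternatives. Without line KO2 the value was -0.42 and the edgeR adjusted p 0.376.

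**Figure D2:**
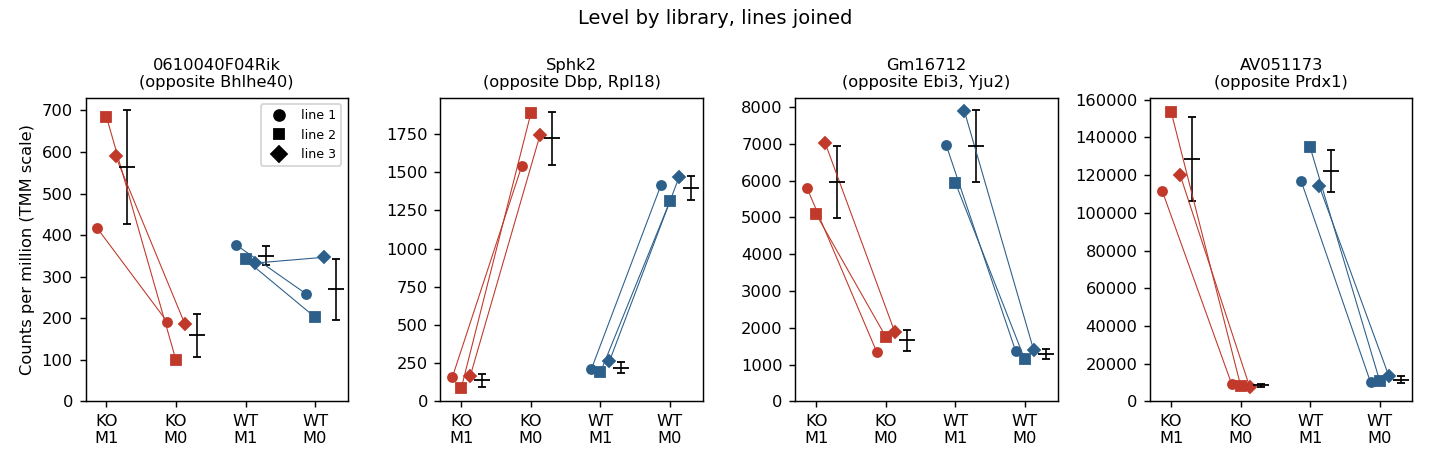
Level of 4 rows in each library (CPM on the TMM scale, linear axes from 0), with the M1 and M0 libraries of a line joined and the mean ± SD of each group beside its 3 points. In 0610040F04Rik the KO lines are steeper than the WT lines, and in Sphk2 the KO points are below WT in M1 and above WT in M0.

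The sequences at the start of 1 called row and of the main partner gene of the others are shown, since each of the 3 rows called with the block shares exons with such a locus. They span 250 bases before to 50 after a RefSeq transcript start in GRCm38.p6, read 5′ to 3′ on the gene's own strand. The 0610040F04Rik start is chr6:108660885-108661184 on the minus strand, the Dbp start chr7:45704997-45705296 on the plus strand, and the Ebi3 start chr17:55952373-55952672 on the plus strand.
0610040F04Rik: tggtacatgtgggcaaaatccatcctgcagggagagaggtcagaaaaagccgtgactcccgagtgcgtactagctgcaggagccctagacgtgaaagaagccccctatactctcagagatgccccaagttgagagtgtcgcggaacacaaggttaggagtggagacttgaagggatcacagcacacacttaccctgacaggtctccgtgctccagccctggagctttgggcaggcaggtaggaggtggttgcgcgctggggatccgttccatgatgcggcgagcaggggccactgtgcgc
Dbp: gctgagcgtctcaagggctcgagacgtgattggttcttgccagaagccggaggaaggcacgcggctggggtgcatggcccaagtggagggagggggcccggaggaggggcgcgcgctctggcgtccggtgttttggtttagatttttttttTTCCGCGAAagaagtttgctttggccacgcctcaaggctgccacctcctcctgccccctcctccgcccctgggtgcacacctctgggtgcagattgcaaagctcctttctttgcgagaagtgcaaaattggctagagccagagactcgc
Ebi3: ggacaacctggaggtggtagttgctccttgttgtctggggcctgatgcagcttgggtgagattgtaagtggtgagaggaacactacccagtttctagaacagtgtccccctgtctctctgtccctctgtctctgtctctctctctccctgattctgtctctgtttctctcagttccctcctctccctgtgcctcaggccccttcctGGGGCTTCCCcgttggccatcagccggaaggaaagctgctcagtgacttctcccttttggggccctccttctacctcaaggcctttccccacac
Capitals mark matches to 5 motifs searched on both strands: the E-box CACGTG, the ISRE core GAAANNGAAA, the GAS element TTCNNNGAA, the D-box TTANGTAA and the κB motif. The Dbp window held 1 GAS match, at base 152 from its 5′ end, and the Ebi3 window 1 κB match, at base 207. The windows of 0610040F04Rik, Gm16712, Sphk2, Yju2 and Rpl18 held none. Of 32851 RefSeq windows of this length, 8.3% held a GAS match, 4.51% a κB match, 7.15% an E-box, 3.44% an ISRE core and 2.32% a D-box. A match describes these letters and says nothing of binding.

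AV051173, the row with the highest mean level, was added after its values were seen. In RefSeq it lies at chr4:116684962-116686022 (GRCm38.p6), across the start of Prdx1, which encodes peroxiredoxin 1, a peroxide-reducing enzyme. AV051173 had 111808, 153617 and 120020 CPM in KO M1 and 9338, 8358 and 7688 CPM in KO M0, against 116934, 134720 and 114212 CPM in WT M1 and 10029, 10909 and 13677 CPM in WT M0. The M1 levels overlapped, and the 3 KO M0 libraries were below the 3 WT M0 libraries. The line responses of 3.58, 4.20 and 3.96 in KO and 3.54, 3.63 and 3.06 in WT overlapped, since the KO1 and WT2 lines lay close together. The interaction was 0.52 on the log2 scale (SE 0.20), with an edgeR adjusted p of 0.71, and 0.123 with the line block. With the block it was called when line KO1, KO3, WT1 or WT2 was left out, and not when KO2 or WT3 was. The Prdx1 row had 273, 477 and 267 CPM in KO M1 and 3.92, 15.9 and 10.2 CPM in KO M0, against 376, 272 and 190 CPM in WT M1 and 14.0, 31.97 and 31.8 CPM in WT M0. Its interaction was 1.60 (SE 0.57), with an edgeR adjusted p of 0.606 and overlapping lines. With the block the Prdx1 row was called when line WT1 was left out.

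Beyond these, the 12 smallest unadjusted interaction p-values in each direction were taken among rows with a group mean of 20 CPM or more. Since p chose these 24 rows, their values are descriptions. Of the 24, 19 had an exon of an opposite-strand gene, 18 had 10 or more summed counts in every group, 23 had line responses that did not overlap, and 14 were called in none of the 30 alternatives. Responses larger in KO cells included Unc5a, a netrin receptor row that faces the hexokinase gene Hk3. It had 1845, 1461 and 1637 CPM in KO M1 and 84.3, 67.5 and 77.3 CPM in KO M0, against 1562, 1432 and 1763 CPM in WT M1 and 105, 109 and 131 CPM in WT M0. The M1 levels overlapped and the M0 levels did not, and the interaction was 0.64 (SE 0.21, edgeR adjusted p = 0.605). Slc24a5, which faces the transcriptional repressor gene Myef2, had 683, 648 and 653 CPM in KO M1 and 422, 347 and 427 CPM in KO M0, against 466, 453 and 403 CPM in WT M1 and 572, 386 and 481 CPM in WT M0. Here the KO M1 libraries stood above all others, and the interaction was 0.85 (SE 0.22, edgeR adjusted p = 0.255). Mtmr7, a phosphoinositide phosphatase row facing Vps37a, had an interaction of 0.70, and 4930506C21Rik, facing the mitochondrial pyruvate carrier gene Mpc1, one of 0.41. Both had edgeR adjusted p = 0.605.

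In several of the positive interactions the WT cells fell on stimulation and the KO cells fell less or did not fall. Phospho1, a phosphatase row facing Abi3, had 68.3, 84.3 and 93.3 CPM in KO M1 and 878, 1048 and 989 CPM in KO M0, against 48.2, 54.4 and 26.6 CPM in WT M1 and 955, 1017 and 830 CPM in WT M0. Its KO M1 levels lay above its WT M1 levels, its M0 levels overlapped, and the interaction was 0.85 (SE 0.28). Slc43a2, an amino acid transporter row, had responses of -0.99 in KO and -1.68 in WT. Narfl, of cytosolic iron-sulfur assembly, had responses of -0.53 in KO and -1.42 in WT. Timm29, of mitochondrial protein import, had responses of 0.20 in KO and -1.36 in WT. In Ddost, Pqlc3 and AI507597 the WT M1 libraries together held 2, 1 and 5 counts, so the size of their interaction rests on very few counts.

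On the other side, Fyco1, an adaptor for the transport of autophagosomes, had 178, 255 and 232 CPM in KO M1 and 33.3, 17.9 and 24.4 CPM in KO M0, against 380, 332 and 306 CPM in WT M1 and 1.75, 12.8 and 11.2 CPM in WT M0. The KO range was below WT in M1 and above it in M0. The interaction was -2.19 (SE 0.53), with an edgeR adjusted p of 0.177 without the block and 0.0919 with it. Gm15441, which faces the thioredoxin-binding gene Txnip, fell in both genotypes, with 15933, 15952 and 14603 CPM in KO M1 and 28142, 37861 and 34473 CPM in KO M0, against 15561, 17743 and 13853 CPM in WT M1 and 26339, 27439 and 22821 CPM in WT M0. Its M1 levels overlapped, its M0 levels were higher in every KO library, and the interaction was -0.41 (SE 0.13, edgeR adjusted p = 0.605). Focad, which faces Hacd4, a gene of very-long-chain fatty acid synthesis, fell by 3.76 in KO and 3.18 in WT on the log2 scale. Tifa, an adaptor of TRAF6 signalling, had responses of 3.74 in KO and 5.63 in WT, and its WT M0 libraries held 7 counts together. Dnm2, encoding the endocytic GTPase dynamin 2, had responses of 0.52 in KO and 1.38 in WT. Gm20319, which faces the interleukin-1 receptor subunit gene Il1rap, had responses of -1.77 in KO and -0.69 in WT, and 0610039K10Rik, which faces Serinc3, responses of -1.01 in KO and -0.61 in WT. The lines of Pcf11, of mRNA 3′ end cleavage, overlapped. Osbpl11 had 1 count over the KO M1 libraries. Tlr1, the Toll-like receptor that pairs with TLR2 for lipopeptides, had 149, 94.8 and 192 CPM in KO M1 against 237, 196 and 253 CPM in WT M1, and only 6 counts in KO M0 and 0 in WT M0.

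**Figure D3:**
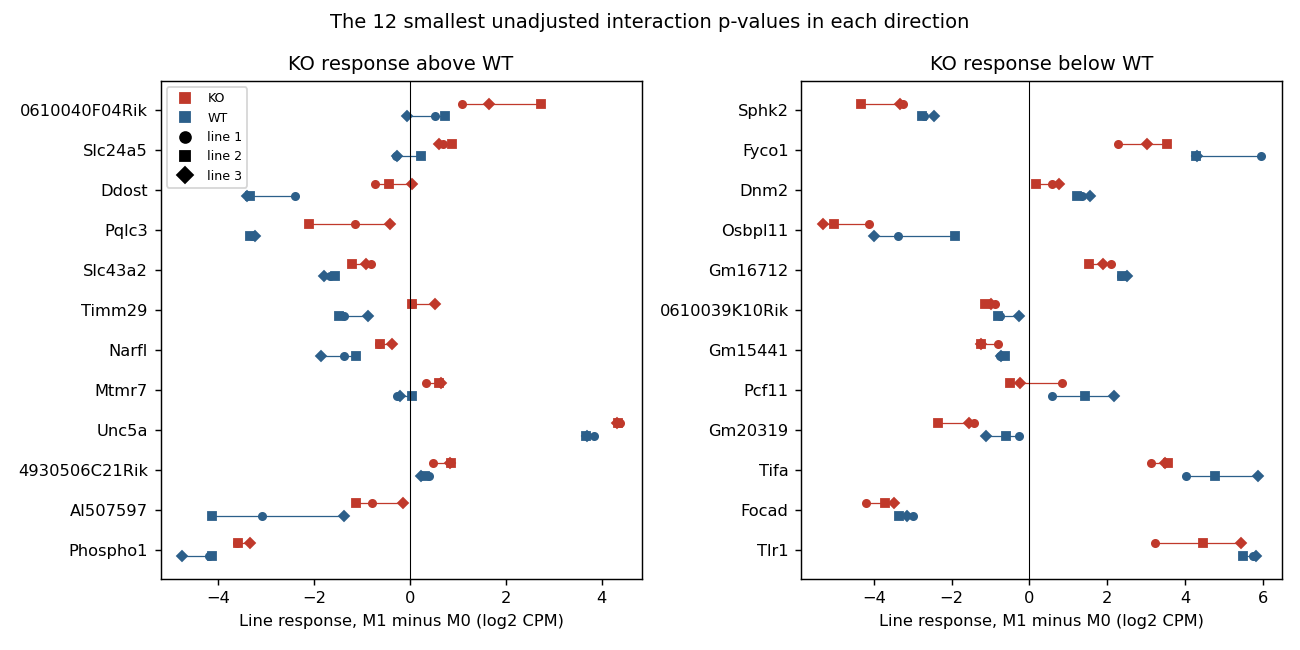
Line responses (log2 CPM, M1 minus M0 of the same line) of the 24 rows with the smallest unadjusted interaction p, KO lines above WT lines, with positive interactions on the left and negative on the right. KO and WT lines are apart in 23 of the 24 rows, which the choice by p favours, and overlap in Pcf11.

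Across functional groups of rows, the size of the 2 responses was set side by side over the responding members of 24 lists of macrophage and housekeeping programmes. Unless stated otherwise, members were assigned by the row's own symbol, so the limit on the counted strand applies to every list. Of the 24, 16 lists had 5 or more responding members. Over all 1428 responding rows the mean response size was 1.63, 1.63 and 1.67 in the KO lines and 1.71, 1.66 and 1.68 in the WT lines on the log2 scale, with overlap. In 5 of the 16 lists the KO and WT lines did not overlap, and the same held for 296 of the 2333 single rows (12.7%). The lists are not independent, since some share members, such as Tnfsf9 in the M1 effector and costimulation lists. The response was smaller in all KO lines for type I interferon antiviral genes and for MHC class I presentation. It was larger in all KO lines for inflammatory cytokines and M1 effectors, for costimulation and checkpoint genes and for oxidative stress genes. With 3 lines in each genotype the smallest 2-sided exact permutation p is 0.1, so no list could pass 0.05, and no interaction was called in any list without the block.

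Type I interferon antiviral genes rose in all 15 tested members of 43, and their mean response size was 3.10, 3.10 and 3.13 in KO lines and 3.20, 3.19 and 3.21 in WT lines. The gap between the ranges was small beside the response. In 8 of the 15 rows at least 1 genotype had no count in M0, and in 5 both had none, so the size of those responses is set by the prior count. Of the 5 rows with 10 or more counts in every group, the KO response was the smaller in 4, with a median difference of -0.23, against -0.03 over all such rows. Among the 4 are Parp9 and Dtx3l, which face each other over 458 bases, so they are not separate support. Oas3, which makes the second messenger of RNase L, was the only member with an unadjusted interaction p under 0.05, and it lay the other way. It had 56.5, 60.6 and 25.2 CPM in KO M1 against 34.2, 78.5 and 53.2 CPM in WT M1, with 0 counts in KO M0 and 10 in WT M0, and its edgeR adjusted p was 0.627. Parp9, an ADP-ribosyltransferase of the interferon response, had 3518, 3130 and 3287 CPM in KO M1 and 351, 532 and 551 CPM in KO M0, against 3865, 3607 and 3061 CPM in WT M1 and 429, 448 and 418 CPM in WT M0. Its libraries overlapped in both states, and its interaction was -0.23 (SE 0.18, 95% interval -0.60 to 0.13). In the GTPases of the GBP and IRG families, which attack vacuoles of intracellular pathogens, all 11 tested of 22 rose. In 7 of the 11 at least 1 genotype had no count in M0, only 1 had 10 or more counts in every group, and the lines overlapped, so the sizes of the responses could not be compared over this list. Gbp5, a GTPase that supports inflammasome activation, had 175, 187 and 139 CPM in KO M1 against 235, 181 and 140 CPM in WT M1, with 7 counts in KO M0 and 2 in WT M0. The row Mir6381, which faces Gbp2 over 24 bases, showed the largest rise among rows with 10 or more counts in every group. It had 67296, 65468 and 64306 CPM in KO M1 and 116, 202 and 173 CPM in KO M0, against 69534, 71001 and 68246 CPM in WT M1 and 108, 139 and 137 CPM in WT M0. All KO M1 libraries lay below all WT M1 libraries, the M0 levels overlapped, and the interaction was -0.44 (SE 0.17, edgeR adjusted p = 0.627).

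MHC class I presentation had 15 tested members of 23, of which 12 rose and 1 fell. The mean response size over the 13 was 2.35, 2.51 and 2.13 in KO lines and 2.68, 2.53 and 2.71 in WT lines, and the KO response was the smaller in 9. On the log2 CPM scale the 13 rows averaged 7.08 in KO M1 and 4.86 in KO M0, against 6.97 in WT M1 and 4.46 in WT M0, so the M0 levels were farther apart than the M1 levels. Psmb9, a subunit of the immunoproteasome, had 131, 73.7 and 85.8 CPM in KO M1 and 29.4, 23.8 and 24.4 CPM in KO M0, against 111, 90.6 and 96.5 CPM in WT M1 and 8.75, 12.8 and 7.49 CPM in WT M0. Its M1 levels overlapped and its M0 levels were higher in every KO library. Its interaction was -1.46 (SE 0.61, edgeR adjusted p = 0.7), and it shares bases with Tap1 on the opposite strand. Tap1, of the peptide transporter into the endoplasmic reticulum, had 645, 608 and 775 CPM in KO M1 against 605, 698 and 582 CPM in WT M1, with 19 counts in KO M0 and 7 in WT M0. H2-T22, a non-classical class I molecule, had responses of 4.05 in KO and 4.87 in WT, and B2m, the light chain of class I molecules, 2.73 in KO and 3.12 in WT, both with overlapping lines.

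Inflammatory cytokines and M1 effectors had 12 tested members of 40, of which 10 rose and 1 fell. The mean response size was 3.72, 3.99 and 3.84 in KO lines and 3.58, 3.37 and 3.59 in WT lines. This list rested on rows that were nearly empty in M0: in 6 of the 11 at least 1 genotype had no count there, and only 1 had 10 or more counts in every group. Nos2, inducible nitric oxide synthase, had 113, 174 and 95.9 CPM in KO M1 against 155, 63.4 and 76.5 CPM in WT M1, with 0 counts in KO M0 and 1 in WT M0. Acod1, which makes itaconate, had 155, 219 and 164 CPM in KO M1 against 261, 163 and 146 CPM in WT M1, with 0 counts in KO M0 and 3 in WT M0. In both rows the KO and WT levels overlapped in M1. C3, the central complement component, had 458, 474 and 315 CPM in KO M1 against 394, 326 and 266 CPM in WT M1, with 5 counts in KO M0 and 10 in WT M0. Among better-counted rows, Numa1, which faces the interleukin-18 antagonist gene Il18bp, rose by 2.90 in KO and 2.55 in WT, with an interaction of 0.35 (SE 0.17, edgeR adjusted p = 0.807). Assigned by the gene on the opposite strand, the list had 5 responding rows, a median difference of -0.15 in place of 0.84, and overlapping lines.

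Costimulation and checkpoint genes had 9 tested members of 25, of which 8 rose. The mean response size was 2.94, 3.15 and 3.24 in KO lines and 2.86, 2.86 and 2.73 in WT lines, and 2 of the 8 had 10 or more counts in every group. Over those 2 the median difference was 0.01, and the KO response was the larger in 1. Cd274, the ligand PD-L1, had 68.3, 121 and 149 CPM in KO M1 against 123, 133 and 170 CPM in WT M1, with 2 counts in KO M0 and 3 in WT M0. Oxidative stress and NRF2 targets had 13 tested members of 35, of which 9 rose. Their mean response size was 2.71, 2.63 and 2.94 in KO lines and 2.63, 2.51 and 2.22 in WT lines, and the lowest KO line and the highest WT line were equal to 2 decimals. An unadjusted interaction p under 0.05, at a background of 6.17% of rows, was found in 3 of the 13, Prdx1, Hmox1 and Sod1, and the KO response was above WT in all 3. Hmox1, the heme-degrading enzyme, had 131, 86.9 and 78.2 CPM in KO M1 and 7.84, 5.95 and 8.14 CPM in KO M0, against 102, 84.6 and 53.2 CPM in WT M1 and 26.2, 10.7 and 18.7 CPM in WT M0. Its M1 levels overlapped, and every KO M0 library was below every WT M0 library. Its interaction was 1.61 (SE 0.69, edgeR adjusted p = 0.737). Sod1, cytosolic superoxide dismutase, had an interaction of 0.89 (SE 0.43, edgeR adjusted p = 0.807) with overlapping lines. The list's median difference was -0.05, opposite in sign to the difference of its line means.

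**Figure D4:**
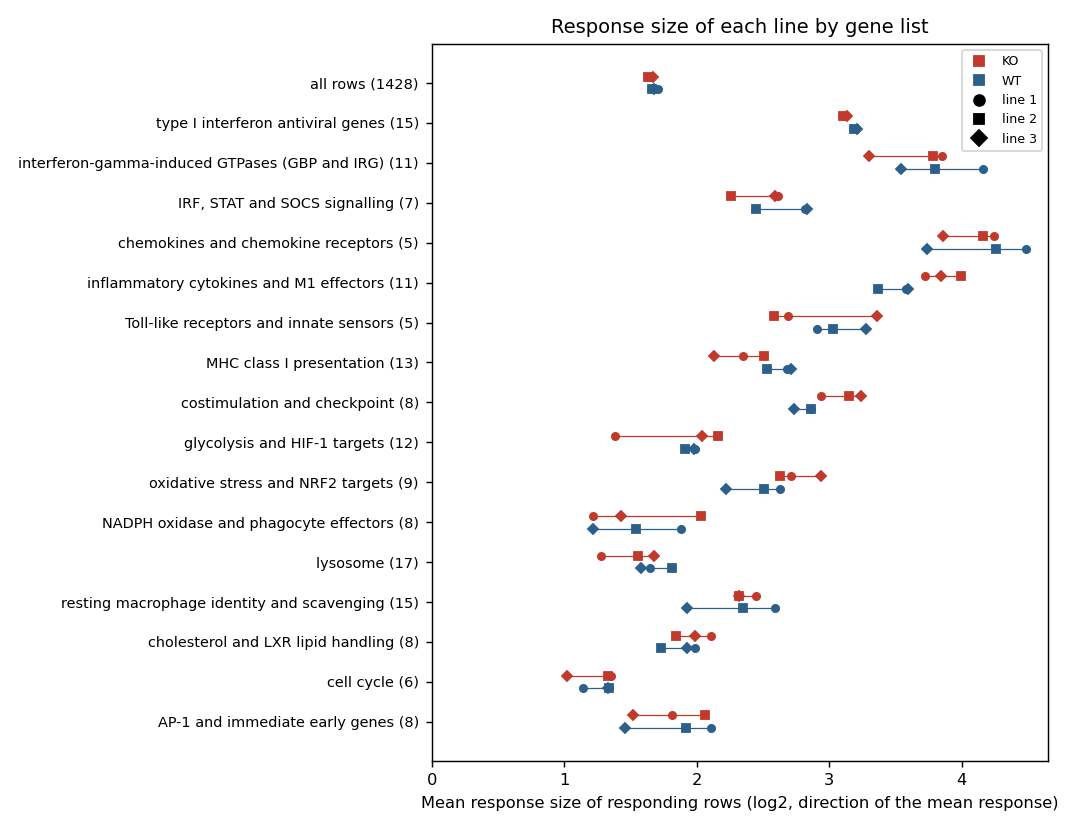
Mean response size of the responding members of each list (horizontal axis, log2, in the direction of the mean response) in each KO line (red, upper) and WT line (blue, lower), with the number of members in brackets. The 2 genotypes are apart in 5 of the 16 lists shown under all rows, and overlap over all 1428 rows.

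The other 11 lists with 5 or more responding members had overlapping lines. Chemokines had 6 tested members of 29, and Cxcl9, a T cell attractant induced by IFN-γ, had 704, 671 and 489 CPM in KO M1 against 800, 731 and 519 CPM in WT M1, and 0 counts in both M0 groups. Ccl5 had 107, 103 and 103 CPM in KO M1 against 107, 121 and 136 CPM in WT M1, and 0 counts in both M0 groups. The levels overlapped in both genes. The fitted responses, 11.11 in KO and 11.25 in WT for Cxcl9 and 8.54 and 8.75 for Ccl5, have no counted M0 level beneath them. Both rows nevertheless entered the list means and the slope over responding rows. Irf1, a transcription factor of the IFN-γ response, had responses of 2.68 in KO and 2.97 in WT. Irf7, the interferon-amplifying factor of the same list, had 101, 97.4 and 85.8 CPM in KO M1 against 131, 151 and 66.5 CPM in WT M1. It held 12 counts in KO M0, all in line KO2, and 0 in WT M0. Its unadjusted interaction p was 0.00977 and its edgeR adjusted p 0.627, and it was called when line KO1 was left out with the block. Lysosomal genes had 24 tested members of 40, of which 9 rose and 8 fell, and their median difference was -0.26. Resting macrophage identity and scavenging genes had 19 tested of 34, of which 5 rose and 10 fell, with a median difference of -0.12. Cd163, the hemoglobin scavenger receptor, had 2.97, 5.27 and 10.1 CPM in KO M1 and 1829, 2899 and 2977 CPM in KO M0, against 4.02, 21.1 and 19.96 CPM in WT M1 and 2081, 1663 and 1163 CPM in WT M0. Its libraries overlapped in both states, and the interaction of -1.72 (SE 0.96, 95% interval -3.85 to 0.41) rests on 7 counts in KO M1 and 15 in WT M1. Prune2, the other row among the deepest falls, had responses of -7.96 in KO and -8.82 in WT.

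Cholesterol and lipid-handling genes had 12 tested members of 35, of which 3 rose and 5 fell, with overlapping lines. Apoe, the apolipoprotein of cholesterol efflux, had 365, 266 and 219 CPM in KO M1 and 1172, 1262 and 1162 CPM in KO M0, against 442, 365 and 396 CPM in WT M1 and 1163, 1326 and 899 CPM in WT M0. Its fall was larger in KO, with an interaction of -0.60 (SE 0.22, edgeR adjusted p = 0.627) and overlapping lines. Pltp, the phospholipid transfer protein, had 1432, 1624 and 1468 CPM in KO M1 and 4211, 3986 and 3931 CPM in KO M0, against 1298, 1438 and 1337 CPM in WT M1 and 4537, 4694 and 4909 CPM in WT M0. Its fall was smaller in every KO line, with an interaction of 0.37 (SE 0.13, edgeR adjusted p = 0.605). The circadian clock list had 3 tested members of 19 under their own symbols. Nr1d1, the clock repressor REV-ERBα, had 35.7, 31.6 and 42.9 CPM in KO M1 and 171, 189 and 246 CPM in KO M0, against 58.3, 66.5 and 53.2 CPM in WT M1 and 196, 156 and 159 CPM in WT M0. Its KO M1 libraries were below WT, its M0 libraries overlapped, and its interaction was -0.93 (SE 0.40, edgeR adjusted p = 0.737). Of the 5 rows assigned to clock genes by the opposite strand, 2 were called with the line block, 0610040F04Rik and Sphk2. Over all tested rows 3 of 2333 (0.129%) were called. Both rows lost the call without line KO2, and Sphk2 also faces Rpl18. The lists were chosen with earlier results of these data known, so this count is a description. D930015M05Rik, which faces the clock repressor gene Cry2, had an interaction of -0.91 (SE 0.47, edgeR adjusted p = 0.831). The others were Gm15511, which faces Rora, at 0.48 (SE 0.78) and Thra, which faces Nr1d1, at -0.75 (SE 0.89). The interaction was positive in 2 of these 5 rows and negative in 3. Ctsd, the protease cathepsin D, had responses that fell less in KO lines than in WT lines, with an interaction of 0.90 (SE 0.41, edgeR adjusted p = 0.78).

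The rows in which equal responses could be seen most closely were strong responders with narrow intervals. Zmynd15, which faces the chemokine gene Cxcl16, had 31194, 30749 and 27571 CPM in KO M1 and 6191, 6113 and 7085 CPM in KO M0, against 30269, 31465 and 35517 CPM in WT M1 and 7227, 7379 and 7561 CPM in WT M0. Its responses were 2.21 in KO and 2.13 in WT, and the 95% interval of their difference ran from -0.15 to 0.30. Fdft1, of sterol synthesis, faces the cathepsin gene Ctsb and fell by 2.64 in KO and 2.55 in WT, with an interval of -0.37 to 0.19. Slfn5os, which faces the interferon-induced gene Slfn5, rose by 3.05 in KO and 3.19 in WT, with an interval of -0.44 to 0.15. Sla2, facing Rab5if, had an interval of -0.37 to 0.06, and E230013L22Rik, facing the phagosomal GTPase gene Rab20, one of -0.38 to 0.20. Brip1os, facing Med13, had responses of 2.51 in KO and 2.77 in WT, and its interval of -0.51 to -0.01 lay below 0 before adjustment.

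Depth decided where such statements were possible. The 95% interval of the interaction lay wholly within a 2-fold difference between the responses, in either direction, in 641 of 2333 rows (27.5%). The share was 1 of 395 rows under 20 CPM, 13 of 1067 rows from 20 to under 100 CPM, 456 of 695 rows (65.6%) from 100 to under 1000 CPM, and 171 of 176 rows (97.2%) at 1000 CPM or more. The spread of the fitted interactions narrowed in the same order, with an SD of 1.43 under 20 CPM, 0.98 and 0.43 in the middle classes and 0.25 at 1000 CPM or more on the log2 scale. Of the 211 tested members of the programme lists under their own symbols, 160 had a mean level under 100 CPM. For nearly all rows under that level the interval reached past a 2-fold difference between the responses at this depth.

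**Figure D5:**
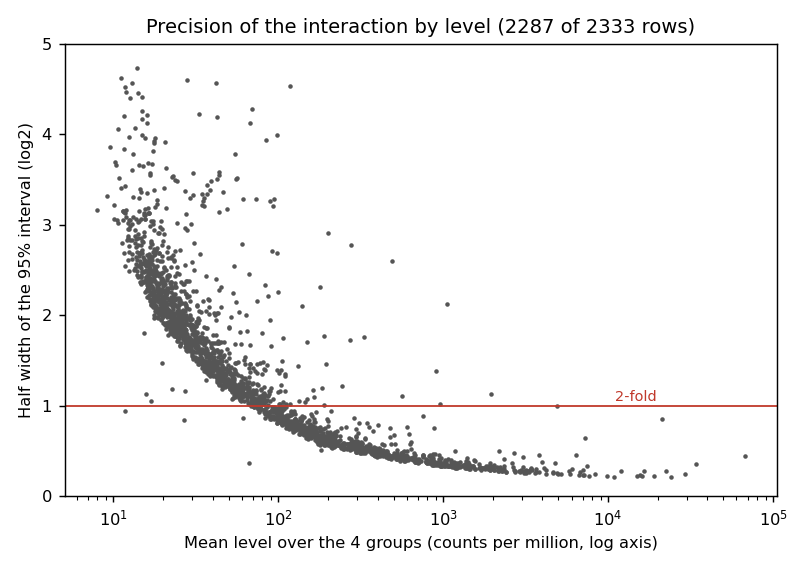
Distance from the estimate to either end of the 95% interval of the interaction (vertical axis, log2) against the mean level over the 4 groups (horizontal axis, CPM, log scale) for 2287 of the 2333 tested rows, with 46 rows above the plotted range and a line at 2-fold. This distance is under 2-fold in 174 of 176 rows at 1000 CPM or more, and in 1 of 395 rows under 20 CPM.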

How the data were processed

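Per the labels' protocols, polyA RNA went into stranded TruSeq libraries that were sequenced on a NovaSeq. The authors deposited whole-number raw counts for each gene symbol in each library, with no normalization. The submitters' processing notes name mm10, Trimmomatic, FastQC, HTSeq and DESeq2, with no versions. Aligner, annotation and counting strand are not given in the sources used here. Of counts from 1 to 12, 60.9% were even, so counts may not be independent, and the intervals hold only the counting error and the variation among these libraries.

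Rows were matched by symbol to GENCODE M21 on GRCm38 for coordinates and for exons on the opposite strand that share 20 or more bases. Promoter windows and AV051173 come from RefSeq on GRCm38.p6. Rows were filtered with filterByExpr, scaled by TMM and fitted with edgeR 4.0.16 under R 4.3.3 in a quasi-likelihood model of the 4 groups without a block. Adjustment of p-values followed Benjamini and Hochberg, over the 2333 tested rows. Standard errors are the fold change divided by the root of the F statistic and can be too small for rows near 0. Line responses are differences of log2 CPM with a prior count of 2. The alternatives were a block for the line or the replicate number, DESeq2 1.42.0, limma 3.58.1 with voom, other scalings and filters, and leaving out libraries or lines. The model was tested on simulated counts.

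By their labels, the libraries form pairs of the same line. Over 1183 rows at 50 CPM or more, the M1 and M0 libraries of a line deviated from their group means together, with correlations of 0.171, 0.392 and 0.241 in KO1 to KO3 and 0.169, 0.341 and 0.167 in WT1 to WT3. Libraries numbered 2 in both genotypes, KO2 and WT2, also deviated together, with correlations of 0.315 to 0.408, against -0.0027 to 0.12 for numbers 1 and 3. Pairs that differed in line, number and genotype ran from -0.287 to 0.217. The highest, WT3 M1 with KO1 M1, was above the same-line values of KO1, WT1 and WT3. Other lines of the same genotype ran from -0.303 to 0.107, below every same-line value. The consensus correlation within lines from limma was 0.0682, a low value. The common dispersion, edgeR's shared estimate of spread, was 0.0498 without the line block and 0.0307 with it. These measures differ on how strong the pairing by line was. The main model has no block, as chosen in the design. Blocked values stand beside the rows called with the block and a few others. Some other named rows were also called when a line was left out with the block, which is stated for AV051173, Prdx1 and Irf7 alone. Named rows were the 12 with the smallest interaction p in each direction at 20 CPM or more, up to 3 rising and 3 falling members of a list, a fixed set of macrophage genes, the 5 largest rises and falls, and the 6 strong responders with the narrowest intervals. From these sets the text gives a part, and Oas3, Irf7, some other list members with an unadjusted p under 0.05, Perm1 and AV051173 were added after their values were seen. The members and lists were chosen with earlier results of these data known.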

Additional observations from a re-analysis of the deposited data

Results flagged for a closer look

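In 3 rows the KO and WT responses differed in a test of the difference itself, the interaction with the line as a block in edgeR's quasi-likelihood test. The 0610040F04Rik row, opposite Bhlhe40, had an interaction of 1.42 on the log2 scale, and its KO response was the larger in 3 of 3 lines. The Sphk2 row, opposite Dbp and Rpl18, had an interaction of -0.97, with a deeper fall in 3 of 3 KO lines. The Gm16712 row, opposite Ebi3 and Yju2, had an interaction of -0.57, with a smaller rise in 3 of 3 KO lines. Each had an edgeR adjusted p of 0.0248 with the block. Without the block the adjusted p values were 0.122, 0.177 and 0.605 in the same order of rows, so none was called there. In each row KO2 was the line farthest from the WT lines, and without it none was called, with adjusted p values of 0.36, 0.5 and 0.376. The cause was not tested.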

How the results depend on the processing

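The interaction called 0 rows in edgeR without a block (144 at an unadjusted p under 0.05), in DESeq2 (138), in limma-voom (123), in limma-voom with the line as a random effect (142), and in edgeR with the replicate number as a block (141). It called 3 rows with no filter on low counts, 0610040F04Rik, Fyco1 and Sphk2. With the line as replicate block it called 3, 4, with Slc24a5 as the added row, when that block was joined to library size as the scaling, 3 when joined to RLE size factors, and 0 when joined to DESeq2. Leaving out single libraries, or single lines with the block, gave 0 to 19 calls, with 19 without KO1, 12 without WT2, 9 without WT1, 7 without WT3, 5 without KO3 and 0 without KO2. Requiring a mean count of 20 or more left 757 rows called in the WT response and 890 in the mean response, from fewer rows tested. Library size as the only scaling moved the median mean response to -0.52, against -0.03, and the median interaction to 0.04, against 0.01.

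The slope of KO on WT responses was 0.992 without the filter, 0.989 at a mean count of 20 or more, 0.916 by least squares of KO on WT, 1.04 by the inverse fit, 0.95 over rows called in WT and 1.01 over rows called in KO, and 0.909 to 1.04 on leaving out libraries or lines. It lay on both sides of 1. Leaving out 1 KO library gave 0.997 to 1.02, and leaving out 1 WT library gave 0.932 to 0.967. The side of 1 thus went with the genotype that lost a library. The least-squares and inverse fits, and the rows called in 1 genotype, lean to opposite sides by construction. These values therefore do not show which genotype responded more.

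List medians are KO minus WT on the log2 scale. M1 effectors, at 0.84, came to 2.24 at a mean count of 20 or more, 1.11 with the line block, 1.09 with block and RLE, 1.11 with block and DESeq2, -0.15 by opposite-strand gene, -0.80 over the 1 member with 10 or more counts in every group, and 0.19 to 1.23 on leaving out libraries or lines. Glycolysis, at 0.18, came to -0.30 without the filter and 1.01 by opposite-strand gene, with a left-out range of -0.44 to 0.28. Type I interferon genes, at -0.13, came to -0.25 with block and DESeq2, with a left-out range of -0.36 to 0.14. The GBP and IRG GTPases, at -0.13, came to -0.70 at a mean count of 20 or more, with a left-out range of -0.89 to 0.01. MHC class I, at -0.27, kept its sign when libraries or lines were left out (-0.53 to -0.23). By opposite-strand gene it came to -0.93 over 4 responding rows. These include Tap1 and Psmb9, which face each other and are also in the list by own symbol, so the value is not separate support. Resting macrophage genes, at -0.12, came to 0.28 with block and DESeq2 and 0.25 by opposite-strand gene, with a left-out range of -0.19 to 0.56. Most of these members of the M1 effector, interferon and GTPase lists had no count in M0 of at least 1 genotype. Lysosomal genes, at -0.26, ranged from -0.34 to 0.11.

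Of the single rows named, interactions that changed sign when a library or line was left out were those of Fdft1 (-0.19 to 0.06), Irf1 (-1.12 to 0.22), Dbp (-0.57 to 0.15), Gm15511 (-0.04 to 1.02), Cd274 (-0.69 to 2.64) and Thra (-1.63 to 0.19, and 0.10 in limma-voom with and without the line as a random effect). None of these was called, and the cause was not tested.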
